A study of Mus musculus with 9 samples.

Results

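The chemokine and trafficking receptors examined here are Ccr2, Ccr7, Cxcr3, Cxcr4, Cxcr6, Cx3cr1 and S1pr1, chosen by symbol in the platform annotation of the arrays. Each of the 7 had 1 probe set of its own, and all 7 were among the 12579 genes kept for testing, of 22180 genes with a probe set of their own. Natural killer (NK) cells, cytotoxic lymphocytes of the innate immune system, were taken from spleens of female C57BL/6N mice that were wild type (WT), lacked the Janus kinase Tyk2 (Tyk2-/-) or carried Tyk2K923E, a form of Tyk2 without kinase activity. For every genotype and experiment, cells of 3 to 4 mice were pooled, enriched with DX5 magnetic beads and cultured for 7 days with recombinant human IL-2 at 5000 U/ml, which all 3 genotypes received. Each of 3 independent experiments gave 1 array for every genotype, 9 arrays in all. The sources used here give neither the ages of the mice nor the part of Tyk2 that is deleted, and the cells measured are expanded cultures, not cells fresh from the spleen.

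All 7 are G protein-coupled receptors that signal mainly through inhibitory G proteins and steer cell movement along gradients of their ligands. CXCR6, CCR2, CXCR3 and CX3CR1 guide lymphocytes into liver and inflamed tissue, CXCR4 holds cells in bone marrow, CCR7 directs them to lymph nodes and S1PR1 lets them leave lymphoid organs into blood and lymph. TYK2 relays signals from the receptors of type I interferons and IL-12, and CXCR3 binds ligands that interferons induce.

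The labelled cell type was checked first. All 16 NK cell identity genes tested were above the array medians on all 9 arrays, among them Ncr1 (10.79 to 11.65 log2 units) and Gzmb (13.23 to 13.41), where the array medians lay between 5.42 and 5.48. The 11 T cell markers tested were above the medians on all 9 arrays too. Among them were Cd3e (10.49 to 11.80), Cd3g (11.10 to 11.80) and Cd8a (7.85 to 9.27). The check therefore does not show that the cultures held NK cells alone. The probe set of Tyk2 read 9.01 ± 0.48 (SD, n = 3) in Tyk2-/- against 8.62 ± 0.06 in WT and 8.53 ± 0.10 in Tyk2K923E. It therefore does not check the labels, since the positions of its probes are not given. Arrays of different genotypes from 1 experiment deviated together from their genotype means (correlations of 0.383 to 0.787 in 9 pairs, against -0.71 to 0.559 in 18 pairs from different experiments, so the ranges overlap), and genotypes were compared within experiments. Array values are log2, and each probe set is compared only with itself across arrays.

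In brief, Cxcr6 and Ccr2 read lower on all 6 arrays of the Tyk2 genotypes than on all 3 WT arrays, Cxcr3 read lower in Tyk2K923E in each experiment, and no direction was shared by the 3 experiments for Cxcr4, Ccr7, Cx3cr1 or S1pr1 in either comparison with WT. Of all genes, 13.6% were lower than WT in 3 of 3 experiments in Tyk2-/- and 14.6% in Tyk2K923E. None of the 7 receptors passed an adjusted p of 0.05 over all genes in limma with the experiments paired, in any of 3 comparisons. The same fit called 11 of 12579 genes (0.0874%) in Tyk2-/- against WT (4 unpaired, 0.0318%), 11 (0.0874%) in Tyk2K923E against WT (1 unpaired, 0.00795%) and 3 (0.0238%) between the Tyk2 genotypes (3 unpaired). At an unadjusted p under 0.05, Ccr2 and Cxcr6 stood out in Tyk2-/- (2 of 7, both lower, where 4.66% of all genes were) and Ccr2, Cxcr3 and Cxcr6 in Tyk2K923E (3 of 7, all lower, where 5.14% were). At an unadjusted p under 0.05 in either direction, the background was 9.08% of genes in Tyk2-/- against WT. Each array is a pool of mice. The paired p-values rest on the spread left between pools once genotype and experiment are accounted for, not on the spread between animals. In cell pools, fewer cells of a type and less RNA per cell cannot be told apart.

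**Figure D1:**
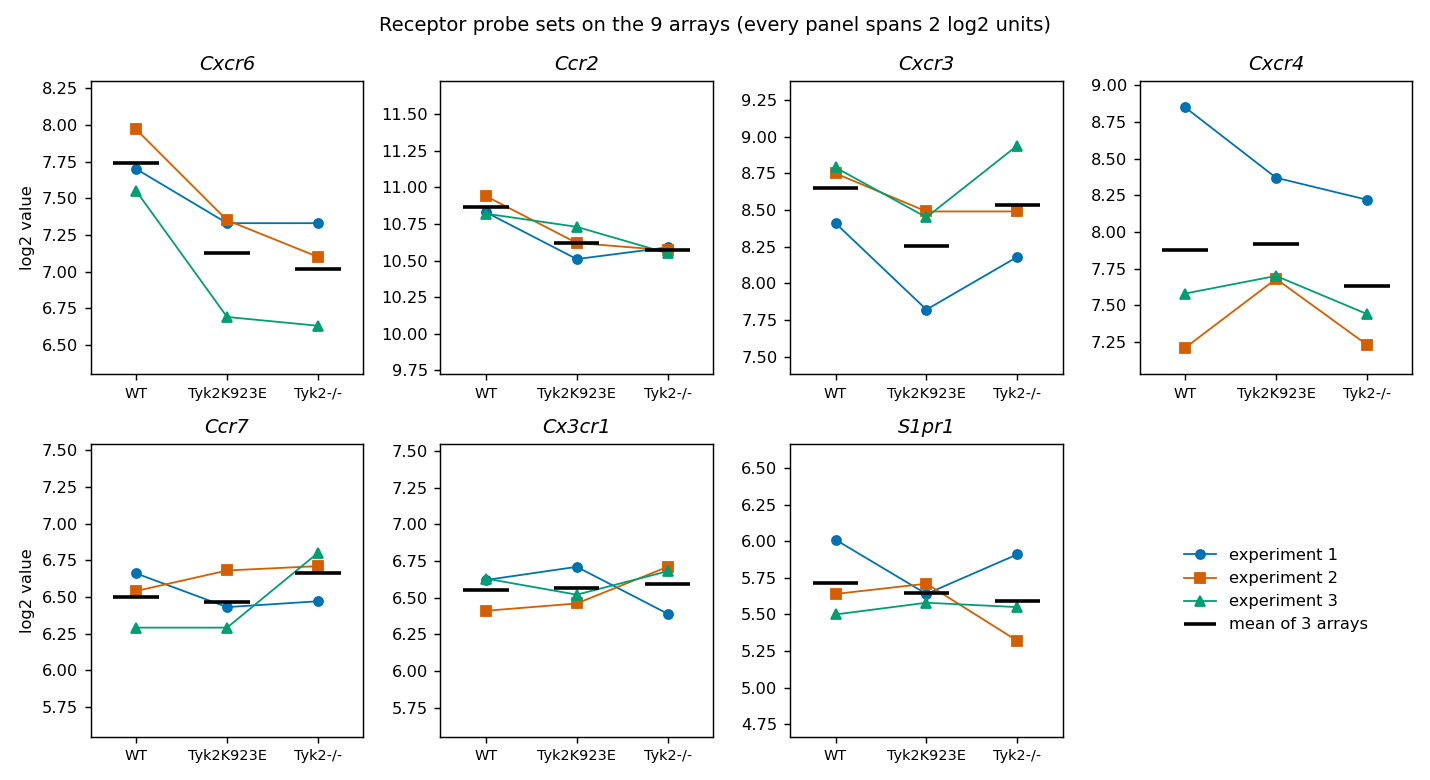
Log2 value (vertical axes, each spanning 2 log2 units) of each receptor's probe set by genotype (horizontal axes); lines join the arrays of an experiment and black bars are means of 3 arrays. The 6 arrays of the Tyk2 genotypes lie below the 3 WT arrays for Cxcr6 (6.63 to 7.35 against 7.55 to 7.97) and Ccr2 (10.51 to 10.73 against 10.82 to 10.94), and genotypes overlap in the other panels.

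Cxcr6 encodes the receptor of CXCL16, through which NK cells and innate-like lymphocytes settle in liver sinusoids. Its probe set read 7.70, 7.97 and 7.55 in WT (experiments 1, 2 and 3), 7.33, 7.35 and 6.69 in Tyk2K923E and 7.33, 7.10 and 6.63 in Tyk2-/-. Every array of both Tyk2 genotypes was below every WT array, and experiment 3 was the lowest within each genotype. The mean was 7.74 ± 0.22 (SD, n = 3) in WT, 7.12 ± 0.37 in Tyk2K923E and 7.02 ± 0.36 in Tyk2-/-, which is 1.53-fold and 1.65-fold lower. The paired log2 difference was -0.72 in Tyk2-/- (SE 0.11, 95% interval -0.98 to -0.47, limma adjusted p = 0.0915) and -0.62 in Tyk2K923E (SE 0.11, 95% interval -0.87 to -0.36, limma adjusted p = 0.103). Within experiments 1, 2 and 3 it was -0.37, -0.88 and -0.92 in Tyk2-/- and -0.37, -0.62 and -0.86 in Tyk2K923E. Neither comparison passed the threshold, but Tyk2-/- did with array weights (adjusted p = 0.0226), with a filter at the 70th percentile (adjusted p = 0.0495) or without WT replicate 1 (adjusted p = 0.0308), over a range of 0.0226 to 1 in 19 alternatives. With array weights Tyk2K923E passed too (adjusted p = 0.0381, range 0.0381 to 1). Without the pairing the unadjusted p was 0.0126 and 0.026, and the adjusted p was 1 for both.

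Ccr2 encodes the receptor of CCL2, which draws monocytes and NK cells out of bone marrow and into inflamed tissue. WT arrays read 10.83, 10.94 and 10.82, Tyk2K923E arrays 10.51, 10.62 and 10.73, and Tyk2-/- arrays 10.59, 10.57 and 10.55. Again no array of either Tyk2 genotype reached a WT array, and the Tyk2-/- arrays lay within 0.04 log2 units of each other. The difference was smaller than that of Cxcr6: -0.29 in Tyk2-/- (SE 0.07, 95% interval -0.46 to -0.13, limma adjusted p = 0.299) and -0.24 in Tyk2K923E (SE 0.07, 95% interval -0.40 to -0.08, limma adjusted p = 0.289), that is 1.23-fold and 1.18-fold lower. By experiment it was -0.24, -0.38 and -0.27 in Tyk2-/- and -0.32, -0.32 and -0.08 in Tyk2K923E. Of all genes tested, 138 (1.1%) had all 6 arrays of the Tyk2 genotypes below all 3 WT arrays, Ccr2 and Cxcr6 among them. For single comparisons, 2.74% of genes had Tyk2-/- entirely below WT and 3.8% had Tyk2K923E entirely below WT, and for the receptors this was Ccr2 and Cxcr6, 2 of 7, in each. None of the 7 had a Tyk2 genotype entirely above WT, as 2.58% of genes did in Tyk2-/- and 3.43% in Tyk2K923E. Both comparisons share the WT arrays.

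Cxcr6 and Ccr2 are neighbours in the chemokine receptor cluster of chromosome 9, on the chromosome of Tyk2 but separated from it by 1055 protein-coding genes in the RefSeq order (GRCm38.p6). Of the 4 protein-coding genes between them, namely Xcr1, Ccr1, Ccr1l1 and Ccr3, only Ccr1l1 was tested, with differences of -0.24 in Tyk2-/- and 0.30 in Tyk2K923E (limma adjusted p = 0.759 and 0.69). Fyco1, an adaptor for the transport of autophagosomes whose gene overlaps Cxcr6, differed by -0.15 and -0.22 (limma adjusted p = 0.58 and 0.336).

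Since these 2 receptors and Cxcr3 had the smallest p-values, their 250 bases upstream of the gene start are shown (RefSeq, GRCm38.p6), written 5′ to 3′ on the gene's strand: chr9:123806227-123806476 (plus strand) for Cxcr6, chr9:124101933-124102182 (plus) for Ccr2 and chrX:101734148-101734397 (minus) for Cxcr3. Capitals mark a match to 1 of 4 motifs searched on both strands.
Cxcr6: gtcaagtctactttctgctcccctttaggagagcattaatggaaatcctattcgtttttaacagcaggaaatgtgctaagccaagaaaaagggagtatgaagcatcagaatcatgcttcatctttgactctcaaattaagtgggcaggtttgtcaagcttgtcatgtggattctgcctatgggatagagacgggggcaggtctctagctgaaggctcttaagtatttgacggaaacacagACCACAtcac
Ccr2: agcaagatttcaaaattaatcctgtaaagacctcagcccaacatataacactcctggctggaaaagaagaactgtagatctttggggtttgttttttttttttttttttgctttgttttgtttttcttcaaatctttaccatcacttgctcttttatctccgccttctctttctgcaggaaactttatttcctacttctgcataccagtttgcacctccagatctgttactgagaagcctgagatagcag
Cxcr3: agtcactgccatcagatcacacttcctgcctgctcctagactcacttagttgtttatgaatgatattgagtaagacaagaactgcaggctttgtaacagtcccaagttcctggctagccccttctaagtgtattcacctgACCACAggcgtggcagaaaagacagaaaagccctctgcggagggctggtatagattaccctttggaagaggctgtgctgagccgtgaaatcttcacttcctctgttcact
The motifs were the STAT element GAS (TTCNNNGAA), the interferon-stimulated response element (ISRE), the T-box half-site (GGTGTGA) and the RUNX site (TGTGGT), and none of the matches overlapped another. Only RUNX letters were found, at 10 to 5 bases before the start of Cxcr6, at 110 to 105 before Cxcr3 and at 54 to 49 before Cx3cr1, whereas the windows of Ccr2 and Cxcr4 held none of the 4. Over all 32851 RefSeq promoter windows of this length, 14.0% held the RUNX letters, 7.02% GAS, 2.98% ISRE and 3.33% the T-box letters. The promoter table held 5 of the 7 receptors, without Ccr7 and S1pr1.

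Cxcr3 encodes the receptor of the interferon-induced ligands CXCL9, CXCL10 and CXCL11 and recruits activated NK and T cells. It read 8.41, 8.75 and 8.79 in WT, 7.82, 8.49 and 8.45 in Tyk2K923E and 8.18, 8.49 and 8.94 in Tyk2-/-. Experiment 1 was the lowest in each genotype, and the genotypes overlapped when experiments were not matched. Within experiments, Tyk2K923E differed from WT by -0.60, -0.26 and -0.34, with a paired difference of -0.40 (SE 0.11, 95% interval -0.64 to -0.15, limma adjusted p = 0.229), or 1.32-fold lower. The unadjusted p of this difference was 0.00538 paired and 0.128 unpaired. Tyk2-/- differed from WT by -0.11 (95% interval -0.36 to 0.13, limma adjusted p = 0.786), lower in 2 of 3 experiments, and by -0.25 without replicate 3 and -0.01 without Tyk2-/- replicate 2. Tyk2-/- read higher than Tyk2K923E by 0.28 (95% interval 0.04 to 0.53, limma adjusted p = 0.473), and Cxcr3 alone among the 7 had an unadjusted p under 0.05 there (0.0269, where 9.68% of all genes did), while 0 of 7 were lower at such a p, against 4.89% of genes.

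**Figure D2:**
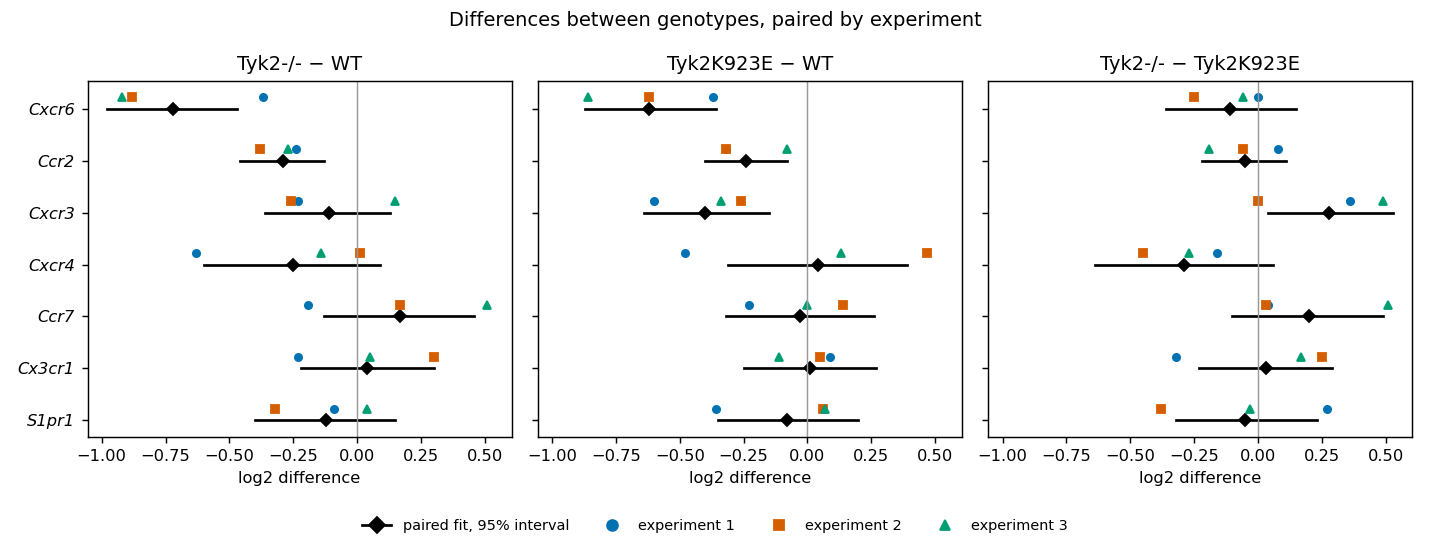
Log2 differences (horizontal axes) of the 7 receptors in each pair of genotypes; diamonds and lines are the paired limma estimate and its 95% interval, and small symbols are the differences within each experiment. The interval lies below 0 for Cxcr6 and Ccr2 in both comparisons with WT and for Cxcr3 in Tyk2K923E (-0.64 to -0.15).

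T cells also carry CXCR3, CXCR6 and CCR2, and their markers were therefore read beside these receptors. All 11 T cell markers tested, of 12 with a probe set, read lower in Tyk2K923E than in WT (median -0.38, against 0.002 over all genes), 6 of them at an unadjusted p under 0.05 and 0 past the limma threshold, where 10.0% of all genes had such a p. Bcl11b, a T lineage transcription factor, differed by -0.42 (limma adjusted p = 0.0521), the adaptor Lat by -0.48 (0.0696), Cd8a by -0.92 (0.173) and Cd8b1 by -0.57 (0.259). In Tyk2-/- the median was -0.09, with 0 at an unadjusted p under 0.05. The mean of the 11 markers differed in Tyk2K923E by -0.56, -0.03 and -0.56 in experiments 1, 2 and 3. In experiment 2 Cxcr3 differed by -0.26 and Cxcr6 by -0.62. Single markers were spread in that experiment, with Bcl11b at -0.38, Lat at -0.41, Cd8a at -0.15 and Cd8b1 at 0.00. The other markers are given only through the mean. In Tyk2-/- the marker mean differed by -0.17, -0.01 and -0.14, and in experiment 3 Cxcr3 read higher (0.15). Between the Tyk2 genotypes (Tyk2-/- minus Tyk2K923E) the marker mean differed by 0.38, 0.02 and 0.42, beside 0.36, 0.00 and 0.49 for Cxcr3. The median of the 11 markers there was 0.35, and 6 were higher at an unadjusted limma p under 0.05. In either direction, 9.68% of all genes had such a p. The summed level (log2) of the markers ranged from 12.72 to 13.26 in WT, 12.49 to 12.80 in Tyk2K923E and 12.76 to 13.25 in Tyk2-/-. Cd4 failed the filter, at 5.32 to 5.58. NK cells transcribe Cd3 chains and Lat as well, and the part of T cells in the receptor results was not tested.

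Group 1 innate lymphoid cells other than NK cells carry CXCR6 in the liver and share further markers with activated NK cells. Without Cxcr6, 8 of their markers were tested, with a median of -0.17 in Tyk2-/- (6 lower) and -0.22 in Tyk2K923E (7 lower). Itga1, the collagen-binding integrin chain CD49a, fell in Tyk2-/- (-0.60, limma adjusted p = 0.0345 paired and 0.0571 unpaired) and differed by -0.39 in Tyk2K923E (0.0787). The receptor Cd160 fell in Tyk2K923E (-0.68, limma adjusted p = 0.0375 paired and 0.155 unpaired) and differed by -0.24 in Tyk2-/- (0.432). The death ligand Tnfsf10 differed by -0.19 in Tyk2-/- and -0.57 in Tyk2K923E (limma adjusted p = 0.662 and 0.129), and Ctla2a by -0.26 and 0.01 (0.355 and 0.973). Il7r was below the medians on all arrays, at 3.83 to 5.01. The mean of the 8 differed by -0.27, -0.15 and -0.09 in Tyk2-/- and by -0.35, -0.11 and -0.43 in Tyk2K923E. Their summed level (log2) was 12.27 to 12.58 in WT, 12.05 to 12.44 in Tyk2K923E and 12.06 to 12.26 in Tyk2-/-, and their part in the result for Cxcr6 was not tested.

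The NK cell identity genes had medians of -0.13 in Tyk2-/- (7 of 16 lower at an unadjusted p under 0.05, where 4.66% of all genes were) and -0.08 in Tyk2K923E (5 of 16 lower, where 5.14% were, and 1 higher). Whatever the p, 11 of 16 were lower and 5 higher in Tyk2-/-, and 10 lower and 6 higher in Tyk2K923E. Prf1 had means of 12.94 in WT, 13.13 in Tyk2K923E and 13.02 in Tyk2-/-. Nkg7 had means of 12.07, 12.03 and 12.15 in the same order. The 4 genes with the smallest p follow, and all 4 read lower. Itga2, the integrin chain CD49b that the DX5 beads bind, fell in Tyk2K923E (-0.71, limma adjusted p = 0.0375 paired and 0.155 unpaired). It differed by -0.39 in Tyk2-/- (0.254). Klrk1, which encodes the activating receptor NKG2D, differed by -0.32 in Tyk2-/- and -0.47 in Tyk2K923E (limma adjusted p = 0.287 and 0.0734). Klrd1, the CD94 chain of the NKG2 receptors, differed by -0.35 in both (0.223 and 0.128), and Klrb1c, the NK1.1 antigen, by -0.29 and -0.12 (0.369 and 0.685).

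**Figure D3:**
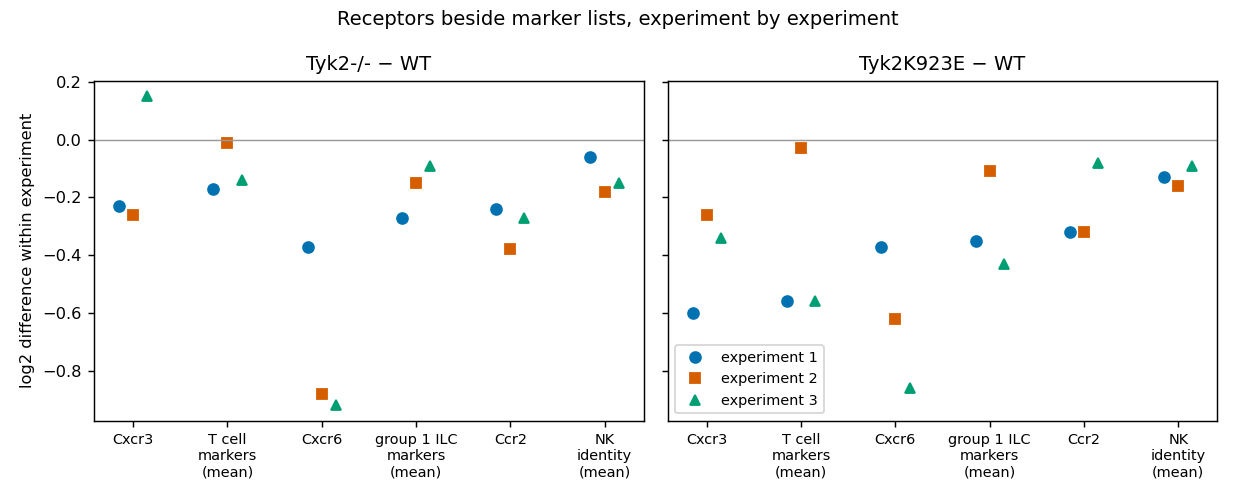
Log2 differences from WT within experiments 1, 2 and 3 (vertical axes) for Cxcr3, Cxcr6 and Ccr2 beside the means of 11 T cell, 8 group 1 innate lymphoid cell (Cxcr6 left out) and 16 NK cell identity genes, in Tyk2-/- (left) and Tyk2K923E (right). In Tyk2K923E the T cell mean is -0.56, -0.03 and -0.56, with Cxcr3 at -0.60, -0.26 and -0.34.

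Cells that carry CCR2, CX3CR1 or CCR7 outside the NK lineage were looked for too. Of 13 monocyte and macrophage markers with a probe set, 8 failed the filter, among them Csf1r, Lyz2, Adgre1, Vcan and Ms4a7. The 5 that were tested include Itgam and Ly6c2, which NK cells also express. Itgam differed by -1.18 in Tyk2-/- and -0.72 in Tyk2K923E (limma adjusted p = 0.0649 and 0.168), Ly6c2 by -0.52 and -0.66 (0.344 and 0.141) and Cd14 by 0.20 and 0.42 (0.472 and 0.102). Of 11 dendritic cell markers 4 failed, Flt3, Xcr1 and Siglech among them. Others were bright, with Cd209a at 10.14 to 10.87 and H2-Ab1 at 8.60 to 10.04 over the 9 arrays. H2-Ab1 differed by -0.28 in Tyk2-/- and -0.18 in Tyk2K923E (limma adjusted p = 0.526 and 0.678). Itgax, also on NK cells, differed by -0.88 and -0.68 (limma adjusted p = 0.222 and 0.203), and the list medians were -0.07 and -0.03. Of 8 B cell markers 7 failed, and the remaining Cd79b differed by 0.10 in Tyk2-/-. Of 10 neutrophil markers 7 failed, with medians of -0.34 and -0.10 for the rest, and 4 of 8 of basophils and mast cells failed, with medians of 0.14 and 0.52. The summed level (log2) of the monocyte markers tested was 12.23 to 12.79 in WT, 11.53 to 12.15 in Tyk2K923E and 11.53 to 12.25 in Tyk2-/-. Most of this sum is Ly6c2, with means of 12.13 in WT, 11.47 in Tyk2K923E and 11.61 in Tyk2-/-. Since NK cells express Ly6c2, the sum does not measure monocytes alone. The part of monocytes in the difference of Ccr2 was not tested. The 4 mast cell and basophil genes tested differed in Tyk2K923E by 0.77 (Mcpt8, limma adjusted p = 0.0684), 0.91 (Cpa3, 0.19), 0.26 (Kit, 0.605) and -0.05 (Cma1, 0.968). In Tyk2-/- these genes differed by 0.49, -0.02, 0.29 and -0.42 in the same order (limma adjusted p = 0.287, 0.989, 0.584 and 0.598).

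Cx3cr1 encodes the receptor of the membrane-bound chemokine fractalkine and marks mature NK cells in blood. WT arrays read 6.62, 6.41 and 6.63, Tyk2K923E arrays 6.71, 6.46 and 6.52, and Tyk2-/- arrays 6.39, 6.71 and 6.68. All 3 genotypes overlapped. The paired difference was 0.04 in Tyk2-/- (95% interval -0.22 to 0.30, limma adjusted p = 0.934) and 0.01 in Tyk2K923E (95% interval -0.25 to 0.27, 0.986). The sign differed between experiments in both.

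Cxcr4 encodes the receptor of CXCL12, the bone marrow chemokine. It read 8.85, 7.21 and 7.58 in WT, 8.37, 7.68 and 7.70 in Tyk2K923E and 8.22, 7.23 and 7.44 in Tyk2-/-. Experiment 1 was the highest in each genotype, and the mean of its 3 arrays was 8.48 against 7.37 and 7.57 in experiments 2 and 3. This difference of 1.01 between experiment 1 and the others was larger in size than that of 99.2% of the genes tested. The experiment accounted for 84.1% of the sum of squares of Cxcr4 over the 9 arrays and the genotype for 6.13%. Tyk2-/- differed from WT by -0.25 (95% interval -0.60 to 0.09, limma adjusted p = 0.658) and by -0.07 without replicate 1. Tyk2K923E differed by 0.04 (95% interval -0.31 to 0.39, limma adjusted p = 0.967), with -0.48, 0.47 and 0.13 within experiments, and by 0.30 without replicate 1. Between the Tyk2 genotypes, Cxcr4 was lower in Tyk2-/- in 3 of 3 experiments by -0.29 (95% interval -0.64 to 0.06, limma adjusted p = 0.551), as 14.3% of all genes were.

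Ccr7, the receptor of CCL19 and CCL21 that leads lymphocytes and dendritic cells to lymph nodes, read 6.66, 6.54 and 6.29 in WT, 6.43, 6.68 and 6.29 in Tyk2K923E and 6.47, 6.71 and 6.80 in Tyk2-/-. The groups overlapped, and the array of Tyk2-/- in experiment 3 was the highest of the 9. The paired difference was 0.17 in Tyk2-/- (95% interval -0.13 to 0.46, limma adjusted p = 0.736) and -0.03 in Tyk2K923E (95% interval -0.32 to 0.26, 0.971). Without Tyk2-/- replicate 3 the former was -0.0015.

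S1pr1, the sphingosine 1-phosphate receptor that opposes retention by CD69, read 6.01, 5.64 and 5.50 in WT, 5.64, 5.71 and 5.58 in Tyk2K923E and 5.91, 5.32 and 5.55 in Tyk2-/-. The genotypes overlapped, and these values lie near the array medians. The paired difference was -0.12 in Tyk2-/- (95% interval -0.40 to 0.15, limma adjusted p = 0.793) and -0.08 in Tyk2K923E (95% interval -0.35 to 0.20, 0.885). Cd69 itself, which binds S1PR1 and pulls it from the cell surface, read 10.60 to 11.21 and was not among the genes of its list with the smallest p.

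**Figure D4:**
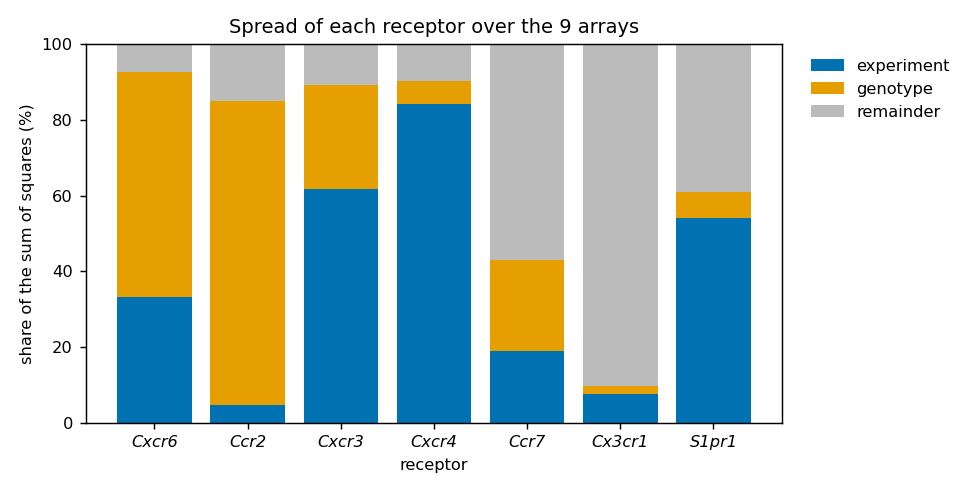
Share of the sum of squares over the 9 arrays (vertical axis, percent) that goes with the experiment, the genotype and the remainder, for each receptor (horizontal axis). The genotype holds 80.2% for Ccr2 and 59.3% for Cxcr6, the experiment 84.1% for Cxcr4 and 61.8% for Cxcr3, and the remainder 90.2% for Cx3cr1.

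The receptors thus split by what their spread went with. The genotype held 80.2% of the sum of squares for Ccr2 and 59.3% for Cxcr6, where the median over all genes tested was 15.5%. The experiment held 61.8% for Cxcr3 and 54.1% for S1pr1, near or above the median of 47.2%. For Ccr7 and Cx3cr1 the remainder was the largest share, at 57.1% and 90.2%. With experiment means removed, Ccr2 and Cxcr6 varied together over the 9 arrays (Pearson r = 0.85, which the shared genotypes of the arrays contribute to), and the other 20 pairs of receptors lay between -0.719 (Cx3cr1 and S1pr1) and 0.541 (Ccr2 and S1pr1).

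By the same measure the genes closest to Cxcr6 were Sike1, an inhibitor of the kinase IKK-epsilon (r = 0.988), and Shisa5 (0.987), with differences of -0.12 and -0.17 in Tyk2-/-. Closest to Ccr2 were Bcl2l11, the pro-apoptotic protein BIM (0.971), and Macrod1 (0.968), and closest to Cxcr3 were Slc14a1, a urea transporter (0.984), and Mgst2 (0.976). Cxcr4 was most like Kank4 (0.976) and Snx2 (0.974), Ccr7 like Gm10069 (0.982) and Aipl1 (0.978), Cx3cr1 like Dcun1d1 (0.972) and Pradc1 (0.969) and S1pr1 like Erbb2 (0.991) and Olfr1046 (0.98). Each receptor had 23 to 108 genes with r above 0.9 among 12578, with 9 arrays behind each value. With the experiment means removed, fewer than 9 values per gene are free to vary.

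Of 26 other chemokine and trafficking receptors with a probe set, 14 passed the filter and 10 were below the medians on all 9 arrays, among them Ccr1, Ccr3, Ccr6, Ccr9 and Xcr1. None of the 14 passed the limma threshold in any comparison. At an unadjusted p under 0.05, 1 of 14 was lower in Tyk2-/- (4.66% of all genes) and 4 of 14 were lower in Tyk2K923E (5.14% of all genes), with medians of -0.03 and -0.07. Ccrl2, a chemerin-binding receptor that does not signal, differed by -0.21 in Tyk2-/- and -0.41 in Tyk2K923E (limma adjusted p = 0.458 and 0.103). It was lower in all 3 experiments of each, as 13.6% and 14.6% of all genes were. In Tyk2K923E the other receptors at such an unadjusted p were Gpr15, a receptor for homing to the colon (-0.50, 0.258), Gpr18 (-0.30, 0.21) and S1pr4 (-0.21, 0.494).

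Genes that make or carry the ligands showed no call either. Of 7 tested, Cxcl16, the ligand of CXCR6, differed by -0.01 in Tyk2-/- and 0.18 in Tyk2K923E (limma adjusted p = 0.97 and 0.476). Spns2, which exports sphingosine 1-phosphate, differed by -0.28 and -0.06 (0.455 and 0.886), and the kinases Sphk1 and Sphk2 that form it by -0.22 and 0.09 in Tyk2-/- (0.55 and 0.78). Cxcl9, Cxcl10, Cxcl12 and Ccl2 failed the filter.

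Among 28 genes of receptor signalling and desensitisation, 0 passed, and the medians were -0.04 in Tyk2-/- and -0.05 in Tyk2K923E, with 2 and 3 of 28 genes at an unadjusted p under 0.05, near the shares of 9.08% and 10.0% over all genes. Rgs18, a regulator of G protein signalling that shortens the signal of such receptors, differed by -0.28 in Tyk2-/- and -0.43 in Tyk2K923E (limma adjusted p = 0.251 and 0.0521). It was lower in 3 of 3 experiments in each, as 13.6% and 14.6% of all genes were. Rgs16 differed by 0.16 and 0.49 (0.648 and 0.119) and Rgs1 by -0.46 in Tyk2-/- (0.45). Coro1a, which organises actin for migration, differed by -0.14 and -0.20 (0.595 and 0.368).

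Of 15 transcription factors known to act on these receptors, 0 passed, with medians of -0.03 and 0.03. Stat4, which carries IL-12 signals that pass through TYK2, differed by -0.22 in Tyk2-/- and -0.44 in Tyk2K923E (limma adjusted p = 0.521 and 0.139), lower in all 3 experiments of both. Tbx21, the T-bet factor that drives Cxcr3, differed by -0.13 and -0.17 (0.597 and 0.424), also lower in all 3 experiments of both. Of all genes, 13.6% in Tyk2-/- and 14.6% in Tyk2K923E were lower than WT in all 3 experiments. Prdm1 differed by -0.17 and 0.08 (0.458 and 0.753) and Nr4a1 by -0.15 and -0.10 (0.51 and 0.648). Klf2, which drives S1pr1, read 6.43 to 6.94 over the 9 arrays, with means of 6.71 in WT and 6.79 in both Tyk2 genotypes.

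Tyk2-/- and Tyk2K923E did not differ past the threshold for any receptor. The difference (Tyk2-/- minus Tyk2K923E) was -0.11 for Cxcr6 (95% interval -0.36 to 0.15) and -0.05 for Ccr2 (-0.22 to 0.11), and these intervals do not show that the 2 genotypes are alike. For all 7 the arrays of the 2 genotypes overlapped, where 2.62% of genes had Tyk2-/- entirely below and 2.89% entirely above Tyk2K923E. For Ccr7 it was 0.20 (-0.10 to 0.49), higher in 3 of 3 experiments, as 14.2% of all genes were. Within experiments it was 0.04, 0.03 and 0.51, and without Tyk2-/- replicate 3 it was 0.03. For Cx3cr1 it was 0.03 (-0.23 to 0.29) and for S1pr1 -0.05 (-0.32 to 0.23). With the main settings, no receptor differed past the threshold in the comparisons with WT either.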

How the data were processed

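The deposited values were log2 expression values; the submitters' processing notes name RMA and Partek 6.6, and the genome build is not given in the sources used here. They were used as deposited (41345 probe sets, 9 arrays, 1.10 to 14.12).

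Of the probe sets, 23521 carried 1 gene symbol, 1814 several and 16010 none in the platform annotation. By Entrez ID 23328 matched RefSeq (GRCm38.p6), used for names, gene order and promoters. A probe set was kept if it reached its array's median on at least 3 of 9 arrays, and the brightest represented its gene (12579 genes). Genes were compared with limma 3.58.1 (lmFit, eBayes, R 4.3.3) in a fit of genotype plus experiment, with Benjamini-Hochberg adjustment over all genes. The labels number independent experiments, and the rule that chose the receptors asked for pairing by that number. The correlations between arrays did not decide the pairing. The number of arrays limits the precision. The code was also run on simulated data, which is no test of the receptor results.

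The rule for named genes took all 7 receptors, Tyk2, the NK identity genes, up to 4 genes per list by p and any past the threshold, and the 2 genes most correlated with each receptor. Dim and neighbouring genes, Klf2 and Cd69 were named beyond it after their values were seen. The receptors and lists were chosen with earlier results of these data known. Alternatives were no block or a random block, other filters, scalings, variance models, the mean over probe sets, and leaving out arrays or experiments. Lists of other cells were T, B, dendritic, monocyte, neutrophil, basophil and group 1 innate lymphoid cells. Python 3.11.15 and matplotlib 3.10.9 drew the figures.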

Additional observations from a re-analysis of the deposited data

How the results depend on the processing

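Over the combinations of receptor, comparison and alternative, 354 kept the sign and the side of the threshold, 32 changed sign and 4 passed the threshold, all 4 for Cxcr6. With array weights Cxcr6 differed by -0.80 in Tyk2-/- and -0.67 in Tyk2K923E, and with a 70th percentile filter by -0.72 in Tyk2-/-, each past the threshold; that filter also left out Ccr7, Cx3cr1 and S1pr1, which thus have no value there. Median centring turned Cx3cr1 in Tyk2K923E to -0.0005. The other sign changes came from leaving out an array or experiment, and the cause was not tested. In Tyk2-/- against WT the ranges were -0.01 to 0.34 for Ccr7, -0.09 to 0.20 for Cx3cr1, -0.21 to 0.01 for S1pr1, -0.25 to -0.01 for Cxcr3, -0.43 to -0.03 for Cxcr4 and -0.90 to -0.61 for Cxcr6. In Tyk2K923E against WT they were -0.13 to 0.11 for Ccr7, -0.18 to 0.30 for Cxcr4, -0.10 to 0.07 for Cx3cr1 and -0.20 to 0.07 for S1pr1. Between the Tyk2 genotypes they were -0.12 to 0.02 for Ccr2, -0.09 to 0.21 for Cx3cr1, -0.21 to 0.12 for S1pr1, 0.03 to 0.32 for Ccr7, 0.17 to 0.43 for Cxcr3, -0.46 to -0.15 for Cxcr4 and -0.22 to -0.03 for Cxcr6. Ccr2 in both comparisons with WT, Cxcr6 in both and Cxcr3 in Tyk2K923E kept their sign in every alternative run. So did Cxcr3 and Cxcr4 in Tyk2-/- against WT (limma adjusted p = 0.786 and 0.658 in the main fit). Between the Tyk2 genotypes, Ccr7, Cxcr3, Cxcr4 and Cxcr6 did too. A kept sign therefore does not set the first 3 receptors apart.

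The count of genes called moved more. Without the replicate block, that is without pairing, it was 4 in Tyk2-/-, 1 in Tyk2K923E and 3 between them, against 11, 11 and 3 with it, and 0 receptors passed either way. With only the 2 genotypes compared it was 6 and 2 for the comparisons with WT, with no filter 4 and 1, with the 70th percentile filter 19 and 29, with an intensity trend 22 and 41, with array weights 26 and 66, and at an adjusted p of 0.1 it was 26 and 54. In Tyk2K923E, median centring gave 20 and quantile normalization 17. Leaving out arrays or experiments gave 3 to 10 in Tyk2-/-, 1 to 6 in Tyk2K923E and 2 to 6 between the Tyk2 genotypes. The median difference of all genes lay within 0.0191 log2 units of 0 under each scaling.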
